A study of Mus musculus with 6 samples.

Results

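Binding of c-Myc at 31 genes of the Notch pathway, counting Rest, was read from peak lists of 3 mouse lung cancer cell lines. The genes were taken by name as the listed Notch ligands, receptors, processing enzymes and effectors together with Rest, out of 21887 protein-coding genes on chromosomes 1 to 19, X and Y. The list was drawn up by pathway membership, with earlier results of these data known. The lines PB115, PB119 and PB120 each gave 1 chromatin immunoprecipitation (ChIP-seq) library made with a c-MYC antibody (D3N8F) and 1 input library of sheared chromatin that was not immunoprecipitated. Fixation was the same for all lines, with 20000000 cells per ChIP held in 1% formaldehyde for 10 minutes. The labels name the lines and the tumour type only, without a genotype, a treatment or a passage number. With a single library per line, no value carries a replicate error and no difference between lines was tested.

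Notch is a receptor that is read out by cutting. Ligands of the Delta-like and Jagged families on one cell bind a Notch receptor on its neighbour, an ADAM protease and then the gamma-secretase complex cut the receptor, and the freed intracellular domain enters the nucleus. There it joins the DNA-binding protein Rbpj and a Mastermind-like coactivator and switches on genes of the Hes and Hey repressors. In the lung, Notch signalling restrains neuroendocrine differentiation, and Rest is a zinc finger repressor of neuronal genes. c-Myc binds DNA as a dimer with Max, with a preference for the E-box CACGTG and for related sequences such as CACGCG.

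A gene is called end-bound here when a listed peak has its summit within 1000 bp of either end of the gene in the RefSeq annotation (GRCm38.p6, the assembly that mm10 denotes). Other summits were classed as deeper in the gene body, or as outside the gene and within 5000 bp of an end. The RefSeq promoter table gave strand and start for 26 of the 31 genes. Hes1, Hey1, Heyl, Mfng and Rest were named only. There were 7830 listed peaks in PB115, 13527 in PB119 and 5168 in PB120, from 40494386, 40726886 and 32299364 ChIP tags. The weakest listed summits held 24, 19 and 21 fragments in the same order, so a gene without a listed peak had no detectable summit at the p-value cutoff used, and absence of c-Myc cannot be read from it. Where 3 values follow each other without names, they stand in the order PB115, PB119, PB120.

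Promoter sequences are shown for 4 of the genes that were end-bound in all 3 lines, and for 1 gene that carries the E-box without a listed peak. Each window runs 5′ to 3′ on the gene's own strand, from 250 bases before to 50 bases after an annotated start (RefSeq, GRCm38.p6). Capitals mark the E-box CACGTG, and the related CACGCG read on either strand.
Notch2 promoter, chr3:98013288-98013587, + strand: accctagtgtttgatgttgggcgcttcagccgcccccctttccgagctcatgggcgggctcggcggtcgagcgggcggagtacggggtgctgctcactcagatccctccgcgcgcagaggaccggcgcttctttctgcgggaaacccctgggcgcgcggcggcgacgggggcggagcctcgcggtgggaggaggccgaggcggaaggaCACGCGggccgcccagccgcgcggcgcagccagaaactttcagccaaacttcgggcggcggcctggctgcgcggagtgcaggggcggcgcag
Lfng promoter, chr5:140607091-140607390, + strand: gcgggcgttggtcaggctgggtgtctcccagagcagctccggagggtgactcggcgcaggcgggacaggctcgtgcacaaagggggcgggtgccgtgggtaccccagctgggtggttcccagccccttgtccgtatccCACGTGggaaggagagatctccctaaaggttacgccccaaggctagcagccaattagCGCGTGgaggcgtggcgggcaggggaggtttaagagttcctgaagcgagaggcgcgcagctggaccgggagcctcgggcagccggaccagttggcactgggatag
Psenen promoter, chr7:30563155-30563454, - strand: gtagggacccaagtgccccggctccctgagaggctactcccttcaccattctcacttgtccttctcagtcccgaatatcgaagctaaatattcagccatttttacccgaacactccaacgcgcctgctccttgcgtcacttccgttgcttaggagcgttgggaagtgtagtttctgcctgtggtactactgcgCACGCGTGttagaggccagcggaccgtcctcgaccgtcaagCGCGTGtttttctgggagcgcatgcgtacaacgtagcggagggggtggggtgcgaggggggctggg
Adam17 promoter, chr12:21373583-21373882, - strand: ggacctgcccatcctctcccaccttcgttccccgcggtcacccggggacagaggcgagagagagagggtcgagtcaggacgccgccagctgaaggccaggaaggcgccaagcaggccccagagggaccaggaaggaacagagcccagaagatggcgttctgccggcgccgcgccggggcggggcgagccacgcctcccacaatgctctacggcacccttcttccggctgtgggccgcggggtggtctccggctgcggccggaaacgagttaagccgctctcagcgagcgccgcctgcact
Psen2 promoter, chr1:180245901-180246200, - strand: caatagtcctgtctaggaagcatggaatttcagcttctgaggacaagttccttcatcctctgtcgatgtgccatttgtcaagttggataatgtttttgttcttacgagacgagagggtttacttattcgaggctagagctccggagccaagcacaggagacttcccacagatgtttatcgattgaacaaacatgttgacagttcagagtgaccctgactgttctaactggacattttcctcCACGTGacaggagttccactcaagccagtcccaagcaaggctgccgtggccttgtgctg

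Across the pathway, PB115 had c-Myc at the ends of 11 genes, PB119 at 16 and PB120 at 7. These are 35.5%, 51.6% and 22.6% of the 31, where 23.6%, 35.3% and 16.4% of all protein-coding genes were end-bound. The share of the pathway lay above that of all genes in each line, and this difference was not tested. The PB119 count depended on its longer list: with each list held to its 5168 peaks of lowest p, 8, 7 and 7 genes were end-bound, where the background was 17%, 18.2% and 16.4%. At a p of 1e-20 or below the counts were 9, 12 and 4 (29.0%, 38.7% and 12.9%), where 18.1%, 30.0% and 11.2% of coding genes were end-bound, and 3 genes (9.68%) were end-bound in all lines against 9.35%. The genes end-bound in all 3 lines were Notch2, Lfng, Adam17, Psenen and Maml3, which is 5 of 31 (16.1%) against 14.4% of coding genes. The count of 5 is close to the share of all coding genes. Notch2 is a receptor gene, Lfng encodes a modifier of the receptor, Adam17 and Psenen belong to the receptor proteases, and Maml3 encodes a nuclear coactivator.

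With summits deeper in the gene counted as well, a peak was found at 16 genes of PB115, 20 of PB119 and 13 of PB120, where the shares of all coding genes were 28.8%, 42.2% and 20.1%. Adding summits outside but within 5000 bp of an end gave 17, 23 and 16 genes, against 32.1%, 45.6% and 23.1% of coding genes. The pathway genes are long, with a median of 20939 bp against 17169 bp for coding genes and 6 of 31 above 100 kb (19.4% against 11.1%), and the part of gene length in these counts was not tested. In at least 1 line, 23 of the 31 genes (74.2%) had a summit inside or within 5000 bp, against 46.4% of coding genes. The 8 genes without one in any line were Dll1, Notch3, Mfng, Psen2, Ncstn, Numb, Hey1 and Heyl.

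**Figure D1:**
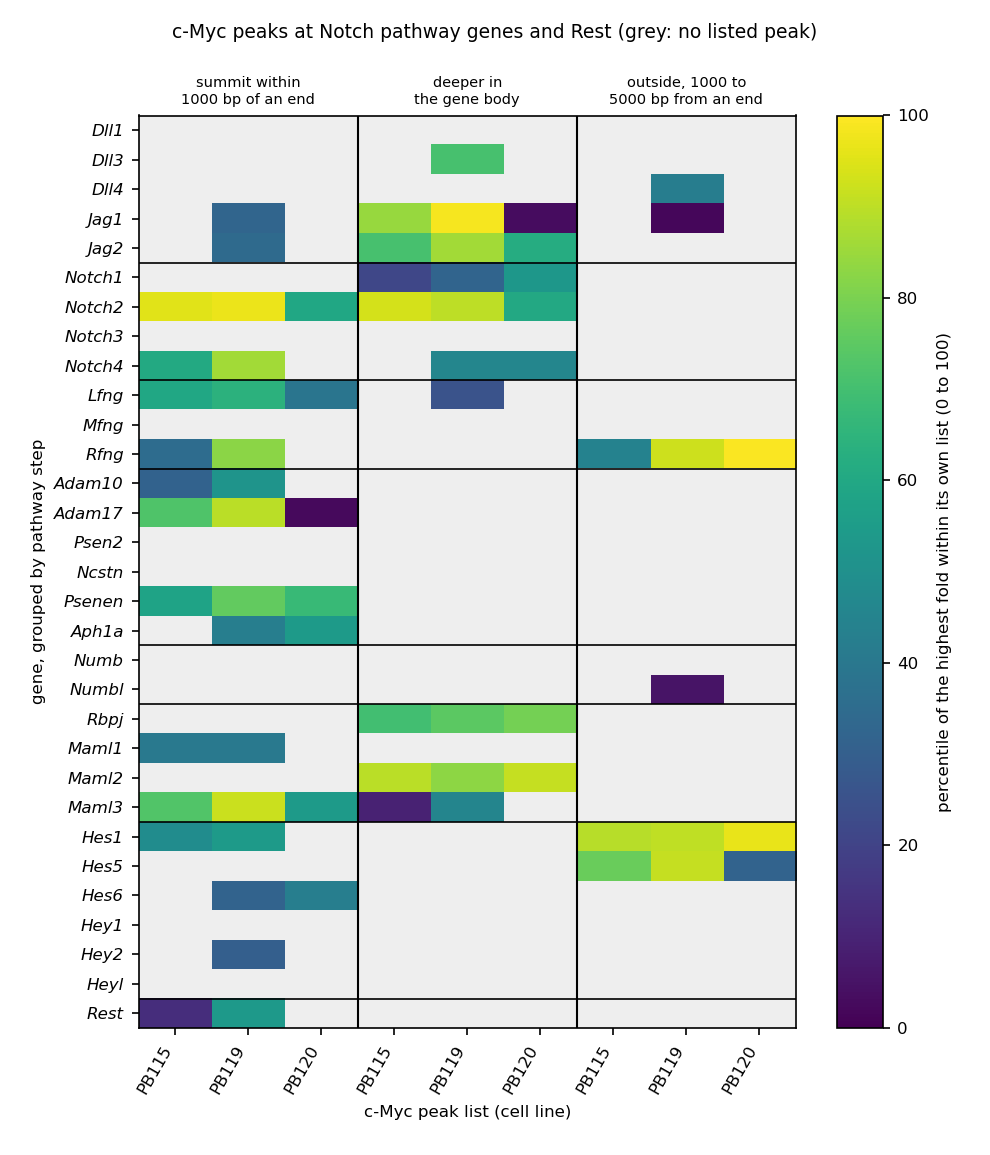
Percentile of the highest fold over input within its own peak list (colour, 0 to 100) for each gene (rows, grouped by pathway step) in PB115, PB119 and PB120 (columns), shown for summits within 1000 bp of an end, deeper in the gene body, and outside within 5000 bp of an end; grey means no listed peak. Notch2, Lfng, Adam17, Psenen and Maml3 have a coloured cell in all 3 lines in the first block, and Hes1, Hes5 and Rfng do in the last.

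By pathway step, the counts of end-bound genes are to be read against 23.6%, 35.3% and 16.4% of all coding genes, and those with an end or body summit against 28.8%, 42.2% and 20.1%. Among the 5 ligands, PB119 had 2 end-bound and the other lines 0, while 2 ligands had a body summit alone in PB115 and likewise in PB120. Among the 4 receptors, 2, 2 and 1 were end-bound. Among the 6 genes of receptor cleavage, 3, 4 and 3 were end-bound, and no summit was found deeper in their bodies. Among the 4 genes of the nuclear core, 2, 2 and 1 were end-bound and 2 more had a body summit in each line. Among the 6 Hes and Hey genes, 1, 3 and 1 were end-bound, and a summit outside the gene alone was found for 1, 1 and 2. Steps hold 1 to 6 genes each, so a single gene moves these counts. No step was tested against another, and no difference between steps is drawn from them.

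**Figure D2:**
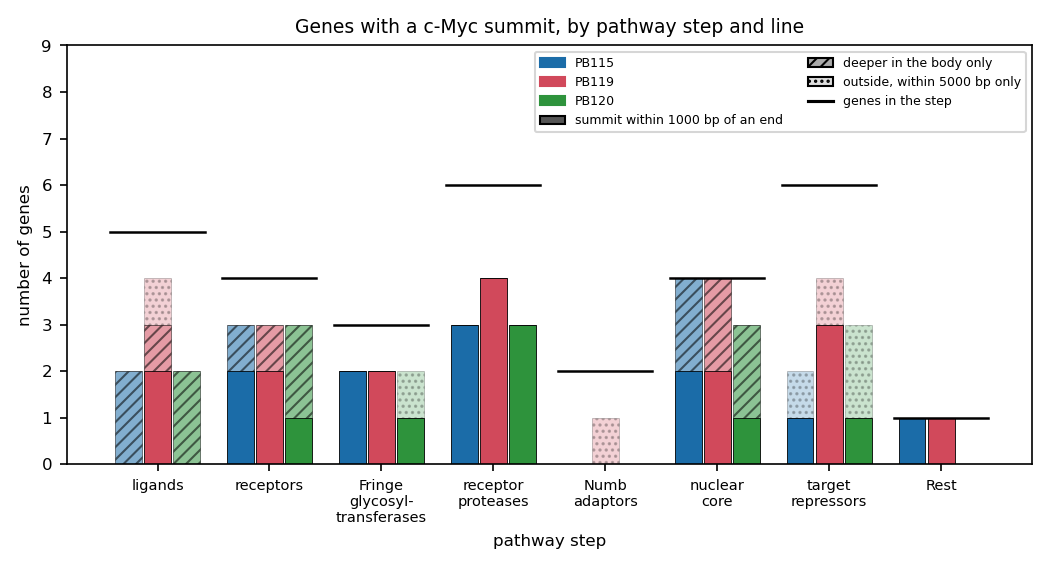
Number of genes (vertical axis) with a c-Myc summit at each pathway step in PB115, PB119 and PB120, stacked by whether the gene had a summit within 1000 bp of an end, only deeper in the body, or only outside within 5000 bp; black lines give the number of genes in the step. Receptor proteases have end summits only, and ligands in PB115 and PB120 have body summits only.

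Among the ligands, the main c-Myc peak of Jag1 lay inside the gene and not at its start. Jag1 encodes Jagged1, a ligand of the Serrate type. Its strongest peak had a fold over input of 14.8 with 104 fragments in PB115, 33.4 with 127 fragments in PB119 and 5.23 with 44 fragments in PB120, at summits 2192, 2178 and 2227 bp downstream of the start. In PB119 it spanned chr2:137114158-137114753 in mm10 coordinates and stood at the 98.7 percentile of its list, whereas in PB120 it stood at the 3.27 percentile. Per 10000000 ChIP tags the summit held 25.7 fragments in PB115 (21.0 to 31.1, exact Poisson 95% interval), 31.2 for PB119 (26.0 to 37.1) and 13.6 for PB120 (9.90 to 18.3). The PB120 interval did not overlap the other two. Such intervals cover counting error within 1 library only, and the fragments are not corrected for input.

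Input background at this Jag1 site was lowest where the fold was highest. The fold is a ratio to that background, so the order is partly fixed by how the fold is made. Relative to its genome-wide value it was 2.49-fold in PB115, 1.30-fold in PB119 and 4.16-fold in PB120, while the medians over all peaks were 1.59, 1.51 and 1.86. Its part in the low PB120 rank and fragment count was not tested. The PB120 to PB119 ratio of fragments was 0.437, at the 4.11 percentile of 3748 regions common to all lines, whose median ratio was 0.775. PB115 and PB119 also shared a pair of weaker peaks 6491 to 7023 bp downstream of the Jag1 start, with folds of 7.87 and 8.13 in PB115 and 11.2 and 8.75 in PB119. At the start itself only PB119 listed peaks, with folds of 8.32, 6.11 and 5.05 at 164, 526 and 1024 bp upstream, all of them at or below the 32.7 percentile.

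Jag2, the other Jagged ligand gene, had its highest peak at one position in all lines. The summits lay 910, 906 and 914 bp downstream of the annotated start, with folds of 11.9, 17.5 and 9.77 and 43, 55 and 29 fragments. They were 1223 to 1231 bp from the gene's outermost end and therefore counted as body summits. PB119 listed a second Jag2 peak 462 bp downstream of the start with a fold of 8.46.
The Delta-like ligands had little. Dll3, an atypical ligand that inhibits Notch in the cell that makes it, had a peak in PB119 alone, 1256 bp inside the end opposite its start, with a fold of 12.8 and 41 fragments. Dll4 had a PB119 peak 3160 bp upstream of its start with a fold of 9.09, and Dll1 had none.

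Notch2 was the most strongly bound receptor gene, with one site at its start and another deep in the gene. At the start the folds were 21.1 in PB115, 27.6 in PB119 and 9.61 in PB120, on 104, 122 and 70 fragments, with summits 21, 60 and 96 bp upstream. In PB119 this peak spanned chr3:98013225-98014283, and in PB115 a separate peak with a fold of 11.3 was listed 614 bp downstream inside the same stretch. The start peak stood at the 95.6, 97.0 and 59.6 percentiles of the 3 lists. Fragments per 10000000 tags were 25.7 (21.0 to 31.1), 30.0 (24.9 to 35.8) and 21.7 (16.9 to 27.4), and the 3 intervals overlapped. Input background there was 1.56, 1.59 and 3.46 times its genome-wide value, so the lower PB120 fold went with a higher input, whose part was not tested. The CACGCG of the Notch2 promoter lay 19, 20 and 56 bp from the 3 summits.

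The intragenic Notch2 site lay about 43 kb from the start. Its summits were 42917, 42926 and 42942 bp downstream, with folds of 19.2, 19.7 and 9.66 and 108, 98 and 48 fragments. Per 10000000 tags these were 26.7 (21.9 to 32.2), 24.1 (19.5 to 29.3) and 14.9 (11.0 to 19.7) fragments. The PB120 interval overlapped that of PB119 and not that of PB115. The PB120 to PB115 ratio of fragments was 0.557, at the 7.42 percentile of the 3748 regions common to all lines, whose median was 0.896. A weak companion peak about 500 bp farther was listed in PB119 with a fold of 5.14 and in PB120 with 6.16, and PB119 alone listed another at 29512 bp with a fold of 5.80. In PB115 the body site held as many fragments as the start.

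The other receptor genes had listed peaks inside the gene or no listed peak. Notch1 had 1 peak at a common site 9188, 9280 and 9322 bp downstream of its start. The folds were 7.60, 8.26 and 9.16 on 31, 34 and 34 fragments, at the 21.1, 32.1 and 52.9 percentiles. No peak was listed at the Notch1 start. Notch4 had its peak close to the end opposite its start: the summits lay 949, 945 and 1037 bp inside that end, with folds of 10.6, 17.5 and 8.69. The 1000 bp limit therefore counts Notch4 as end-bound in PB115 and PB119 and not in PB120, although the peaks overlapped in one region in all 3 lines. Notch3 had no listed peak.

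The Fringe enzymes add a sugar to Notch receptors and shift their response between Delta-like and Jagged ligands. Lfng was end-bound in all lines, with summits 44, 77 and 213 bp upstream of the start and folds of 10.5, 11.6 and 8.19 on 48, 61 and 33 fragments. Of the 31 genes it was the only end-bound one in all lines with CACGTG in its window, 66, 33 and 103 bp from the summits. That E-box overlaps the letters GTGGGAA, a sequence bound by Rbpj, and a CGCGTG lies 9, 24 and 160 bp from the summits.
Rfng had an end summit in PB115, with a fold of 8.51 at 433 bp upstream of the start, and in PB119, with folds of 16.0 at 428 bp and 10.4 at 85 bp upstream. Each of these summits also lay within 1000 bp of Gps1, a neighbouring coding gene. A stronger site lay outside, 4488 to 4507 bp from the Rfng end opposite its start, with folds of 9.15, 21.5 and 25.5 and 103, 116 and 110 fragments. It reached the 99.5 percentile of the PB120 list and the 44.2 percentile of PB115, where input background was 4.35 times its genome-wide value, against 2.06 in PB119 and 1.75 in PB120. The background's part in that order was not tested. Mfng had no peak.

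**Figure D3:**
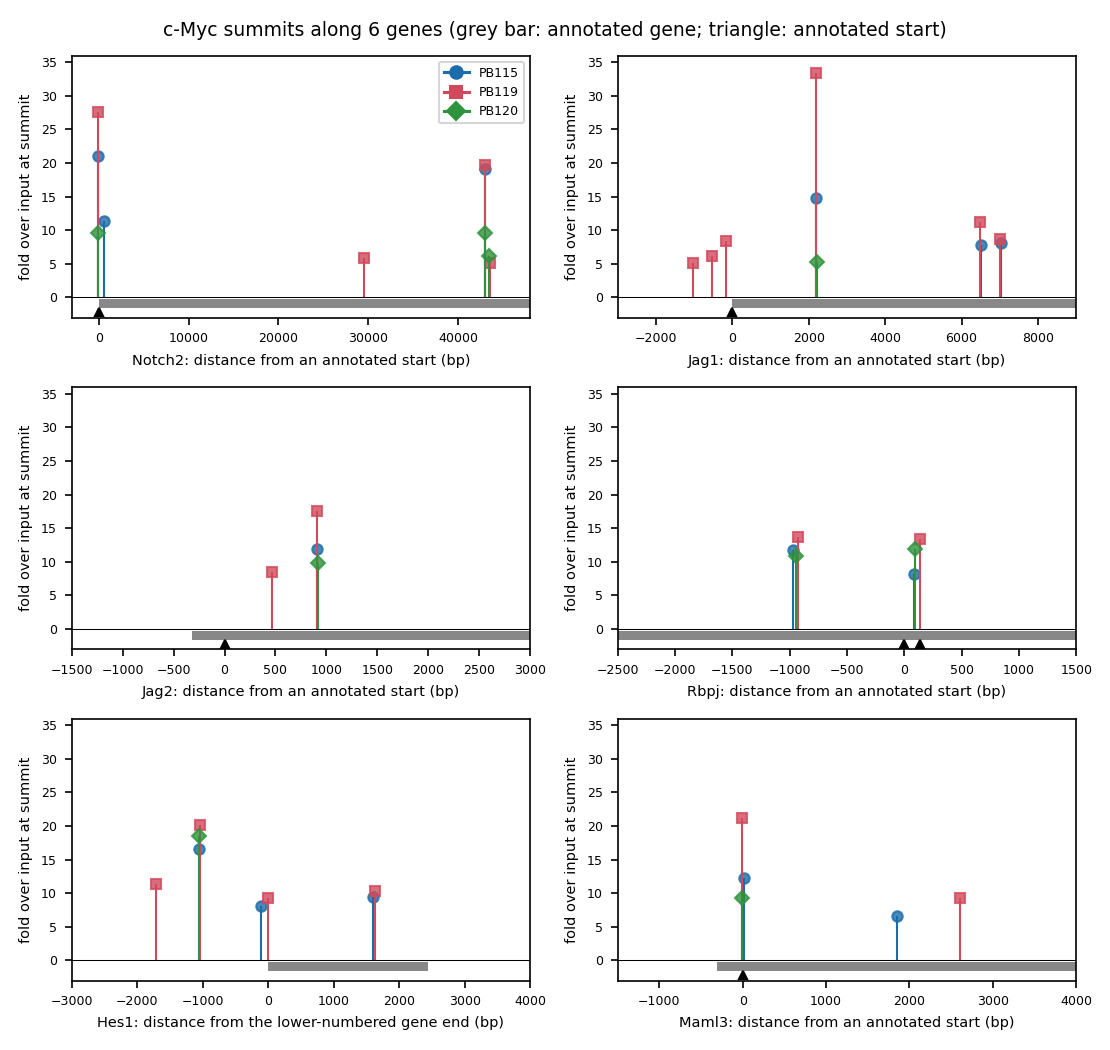
Fold over input (vertical axis) of each c-Myc summit against its distance from an annotated start, or from the lower-numbered gene end for Hes1 (horizontal axis, bp; scales differ between panels), for 6 genes. The tallest Jag1 summit (33.4 in PB119) lies 2178 bp inside the gene, and the Rbpj summits sit around its 2 annotated starts although the gene's outer end is over 33 kb away.

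Of the receptor proteases, the sheddase gene Adam17 was bound at its start in all lines. Summits lay 46, 52 and 51 bp upstream with folds of 12.2, 19.4 and 5.06 on 44, 61 and 30 fragments. The percentiles were 72.6, 89.6 and 2.59, while fragments per 10000000 tags were 10.9 (7.90 to 14.6), 15.0 (11.5 to 19.2) and 9.29 (6.27 to 13.3), with all 3 intervals overlapping. Recovered input background was 1.00 times its genome-wide value in both PB115 and PB119 and 2.77 times that value in PB120. The peak caller takes no background below the genome-wide value, so 1.00 is a floor and local input may be lower. The background's part in the low PB120 fold was not tested. The Adam17 window shown above holds no CACGTG, and no CACGCG on either strand. Adam10, the other sheddase gene, had weaker peaks in PB115 at 769 bp downstream of the start (fold 8.27) and in PB119 at 55 and 602 bp (9.99 and 8.18). Its CACGTG lay 117 bp from the nearest PB119 summit and 831 bp from that of PB115.

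Of the gamma-secretase genes, Psenen had a listed peak in all lines, Aph1a in PB119 and PB120, and Psen2 and Ncstn in none. Psenen, which encodes the small subunit Pen-2, had folds of 10.4, 14.0 and 10.3 on 46, 59 and 37 fragments, with summits 324 to 374 bp inside the gene and 49 to 99 bp from its inner start. Every one of these summits also lay within 1000 bp of the coding gene U2af1l4, a splicing factor gene. The window at that start holds CACGCG and CGCGTG overlapping each other as CACGCGTG, 3 to 47 bp from the summits across the lines, and a separate CGCGTG. Aph1a, another subunit gene, had a fold of 9.11 on 39 fragments in PB119 and 9.25 on 34 fragments in PB120, at 31 bp upstream and 11 bp downstream of the start, and no listed peak in PB115. Its GTGGGAA lay 30 and 12 bp from those summits. Psen2, the gene of a catalytic presenilin, and Ncstn, that of nicastrin, had no listed peak, although an annotated Psen2 start has CACGTG 6 bp upstream.

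Numb and Numbl encode adaptors that lower Notch at the membrane. Numb had no listed peak, and Numbl had only a PB119 peak 3784 bp outside the end opposite its start, with a fold of 5.87 at the 5.14 percentile.

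Within the nuclear core, Rbpj carried c-Myc at its annotated starts in every line, which the window around gene ends leaves out. Its annotated span begins over 33 kb before the starts in the promoter table. One summit lay 55, 6 and 46 bp upstream of the nearest start with folds of 8.17, 13.4 and 11.8, and a second lay 974, 930 and 945 bp upstream with folds of 11.7, 13.7 and 10.8. The fragments were 40, 53 and 46 at the first and 56, 57 and 40 at the second. In PB119 the peaks spanned chr5:53590333-53590649 and chr5:53589184-53589552. Intervals of fragments per 10000000 tags overlapped between all lines at both Rbpj sites. Counted by annotated start, 10, 14 and 9 of the 26 genes with a start were bound, against 25.8%, 38% and 17.6% of coding genes with a start. Those bound in all lines were then 7, with Jag2 and Rbpj added to the 5 named above, against 15.6%.

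The Mastermind-like coactivators differed from one another. Maml3 was bound at its start with folds of 12.2, 21.2 and 9.24 on 51, 67 and 33 fragments, at 19 bp downstream, 14 bp upstream and 7 bp upstream. PB115 and PB119 each listed a further Maml3 peak inside the gene, at 1855 bp (fold 6.64) and 2605 bp (fold 9.35) downstream. Maml1 had folds of 8.84 in PB115 and 8.91 in PB119, at 215 and 171 bp upstream of its start, and none in PB120.

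Among the 16 sites listed in all 3 lines, PB120 stood highest above the other lines at a site in Maml2. Maml2 had no peak near an annotated start. This site, deep in the body, had folds of 7.45, 7.02 and 14.9 on 45, 50 and 94 fragments. This site spanned chr9:13603699-13604024 in PB120, 105691 bp from the nearer end. Per 10000000 tags it held 11.1 fragments (8.11 to 14.9), 12.3 (9.11 to 16.2) and 29.1 (23.5 to 35.6), so that the PB120 interval lay above both others. The ratio of PB120 to PB119 was 2.37, at the 99.8 percentile of the 3748 common regions. Input background was 2.09, 2.91 and 2.89 times its genome-wide value. The background's part in the higher PB120 fragment count was not tested. At the Maml2 site near position 13697574 of chromosome 9, PB115 and PB119 had folds of 16.7 and 16.2 on 99 and 103 fragments, and PB120 listed no peak there. PB120 alone listed a further site, with a fold of 10.3 on 53 fragments.

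**Figure D4:**
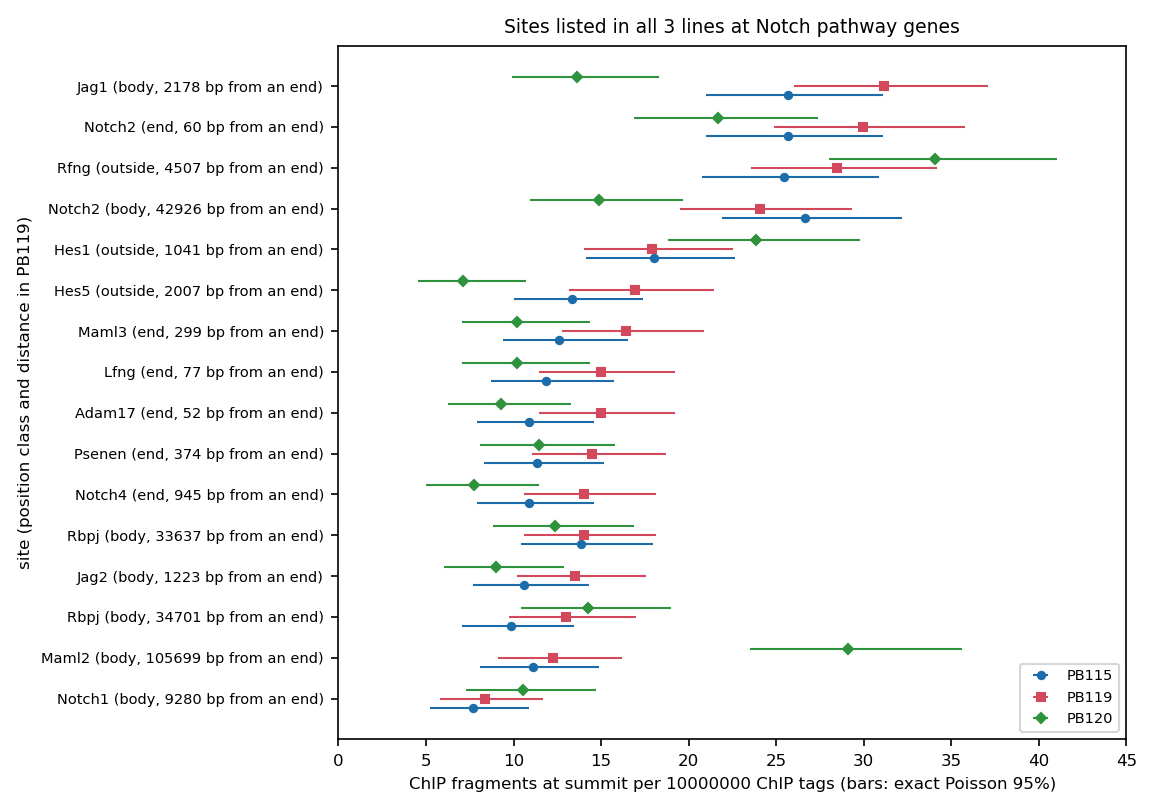
ChIP fragments at the summit per 10000000 ChIP tags (horizontal axis) for the 16 sites at pathway genes that were listed in all 3 lines (rows, ordered by PB119), with exact Poisson 95% intervals that cover counting error in 1 library. PB120 lies below both other intervals at Jag1 and above both at Maml2 (29.1 against 11.1 and 12.3).

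At the Hes and Hey targets, the site that all lines had in common lay outside the genes. Hes1, a repressor that answers directly to Notch, had its strongest peak 1063, 1041 and 1060 bp outside its lower-numbered end, just past the 1000 bp limit. The folds were 16.5, 20.1 and 18.6 on 73, 73 and 77 fragments, at the 89.3, 90.5 and 96.5 percentiles. Per 10000000 tags the 3 values were 18.0 (14.1 to 22.7), 17.9 (14.0 to 22.5) and 23.8 (18.8 to 29.8). In PB119 this Hes1 peak spanned chr16:30063988-30064481. PB115 and PB119 listed further peaks, 103 and 9 bp from that end with folds of 8.13 and 9.34, and 839 and 812 bp inside the other end with 9.48 and 10.3. PB119 listed one more 1711 bp outside with a fold of 11.4. PB120 thus had 1 Hes1 peak where PB115 had 3 and PB119 had 4.

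Hes5 had a common site 1915, 2007 and 1869 bp outside the end opposite its start, with folds of 12.9, 20.6 and 7.83 on 54, 69 and 23 fragments. All 3 summits lay within 1000 bp of Pank4, a neighbouring coding gene, so the site cannot be assigned to Hes5. Per 10000000 tags the values were 13.3 (10.0 to 17.4), 16.9 (13.2 to 21.4) and 7.12 (4.51 to 10.7), and the PB120 interval overlapped that of PB115 only. The PB120 to PB119 ratio of fragments was 0.420, at the 3.36 percentile of the 3748 common regions, whose median was 0.775.
Hes6, which acts against Hes1 and favours neuronal differentiation, had weak peaks in PB119 and PB120, 266 and 408 bp upstream of its outer start, with folds of 8.22 and 8.46 on 31 fragments each. Hey2 had a PB119 peak 276 bp upstream of its start with a fold of 8.15 on 25 fragments. Hey1 and Heyl had no listed peak.

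Rest had a weak peak in PB115, a peak near the middle of the list in PB119, and none in PB120. The summits lay 358 and 365 bp inside an end of the gene, with folds of 7.02 and 10.2 on 25 and 35 fragments, at the 13.2 and 53.8 percentiles. The PB119 peak spanned chr5:77265719-77266049. With 25 fragments the PB115 summit was 1 fragment above the weakest listed summit of that line.

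Peaks at these genes ranked near the middle of their lists. PB115 listed 27 peaks inside or within 5000 bp of the 31 genes, PB119 43 and PB120 20. Their median folds were 10.4, 10.2 and 9.43, at median percentiles of 58.2, 53.8 and 57.1, and 2, 6 and 3 peaks reached the 90th percentile. Merged by an overlap of at least 1 bp they formed 45 regions, of which 16 (35.6%) were listed by all 3 lines, 9 by PB115 with PB119, 3 by PB119 with PB120, 15 by PB119 alone and 1 each by PB115 and PB120 alone. Over all 14193 merged regions the share common to all lines was 26.4% and that of PB119 alone 39.4%, against 33.3% here. An end peak in a region common to all lines was found at 6 genes (19.4%), the 5 named above and Notch4. The share of all coding genes with such a peak was not computed, so this count has no background.

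CpG content was counted in the promoter windows. The 34 promoter windows of the 26 genes had a median of 22.5 CpG per 300 bases, against 13.0 for all 21263 coding promoters. The 9 pathway windows with a summit within 1000 bp in all lines had a median observed to expected CpG of 0.840, the 7 windows with a summit in 1 or 2 lines 0.844, and the 18 without a summit 0.615. For all coding promoters the same classes gave 0.870, 0.812 and 0.304, so the windows without a summit stood less far below the bound ones at the pathway. These differences were not tested. High CpG did not always go with a peak: Hes5 had 41 CpG and Ncstn 25 CpG, and neither had a summit within 1000 bp of its start. Jag2 had the most, with 63 CpG.

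**Figure D5:**
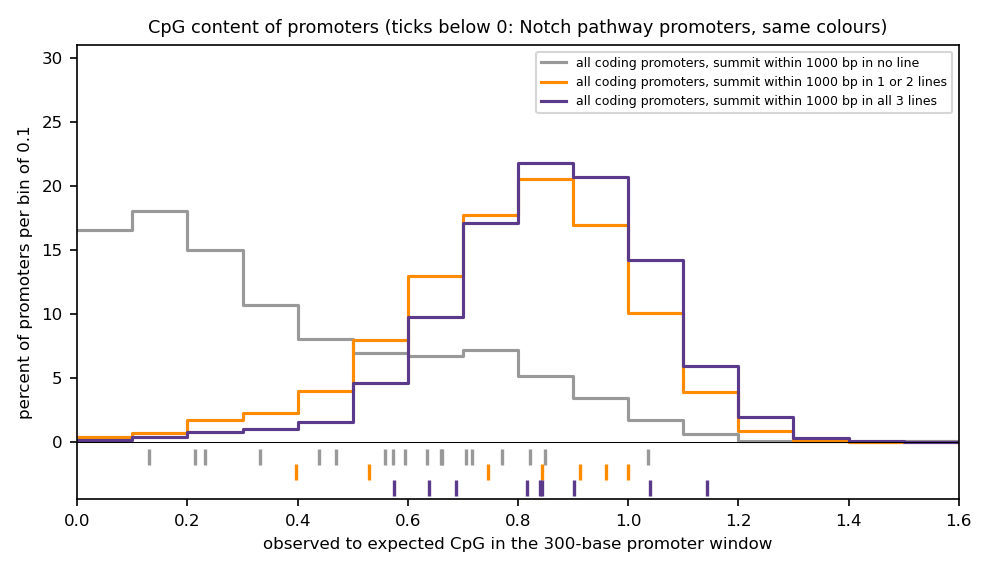
Observed to expected CpG (horizontal axis) of 300-base windows at annotated starts; lines give the percent of all coding promoters per bin, by whether c-Myc had a summit within 1000 bp in no line, in 1 or 2 lines or in all 3 lines, and ticks below 0 mark the 34 windows of pathway genes in the same colours. The pathway windows bound in all lines have a median of 0.840 and those without a summit 0.615.

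E-box letters were searched on both strands of the same windows. CACGTG was in 3 of 34 pathway windows (8.82%, against 7.84% of coding promoters), those of Lfng, Adam10 and the inner Psen2 start. CACGCG or its reverse complement CGCGTG was in 8 windows (23.5%, against 12.1%), those of Notch2, Lfng, Psenen, Jag1, Jag2, Rfng, Dll4 and Dll1. Of these 8 genes, Dll4 and Dll1 had no summit within 1000 bp of a start. Among all coding promoters, CACGTG was in 17.8% of those with a summit within 1000 bp in all lines and in 5.05% of those with none, and CACGCG in 29.8% and 5.35%. GTGGGAA or TTCCCAC, the letters of an Rbpj site, was in 5 windows (14.7%, against 6.07%), those of Lfng, Aph1a, Hes5, Hey2 and Psen2. CACNAG or CTNGTG, the N-box that Hes proteins bind, was in 12 windows (35.3%, against 41.9%). The pathway windows had a median GC content of 63.5%, against 56.3% for all coding promoters. No difference in these motif shares was tested, nor was the part of base content in them. A match is a run of letters and does not show that a factor binds.

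A further 53 genes that act with the pathway were counted the same way, and 23, 31 and 16 were end-bound in PB115, PB119 and PB120, respectively (43.4%, 58.5% and 30.2%, against the shares of all coding genes given above). In all lines 15 of 53 (28.3%) were end-bound, against 14.4% of coding genes, and this difference was not tested. Of 13 corepressors of Rbpj and Hes proteins, 8, 10 and 7 were end-bound, and of 5 coactivators 2, 5 and 1. Of 12 ubiquitin ligases of ligands and receptors 4, 5 and 4 were end-bound, and of 8 corepressors of Rest 5, 5 and 3. Of 4 non-canonical ligands 0, 1 and 0 were end-bound. The remaining groups were 4 genes of receptor O-glycosylation and furin cleavage with 1, 2 and 0, 2 further gamma-secretase genes with 1, 1 and 0, and 5 feedback targets with 2, 2 and 1.

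The 5 highest-ranked of the 15 were a coactivator, corepressors and a ligase. Kat2a, a histone acetyltransferase gene, had folds of 18.8, 32.2 and 13.5 on 106, 118 and 47 fragments. Tle3, a Groucho-type corepressor gene that Hes proteins recruit, had 15.8, 27.5 and 13.5. Ncor1, a nuclear corepressor gene, had 20.5, 27.9 and 10.1 at summits that also lay within 1000 bp of the coding gene Pigl. Hdac2, a histone deacetylase gene, had 13.6, 22.5 and 12.5. Nedd4, a ubiquitin ligase gene, had 15.1, 18.9 and 12.2. These 5 were named because their mean percentiles over the lists were the highest of the 15, and folds rank peaks within a list only.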

How the data were processed

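Peaks of 3 c-Myc ChIP-seq libraries, 1 per cell line, each called against the input of its line, were used; inputs entered only through that calling. Bowtie, SAMtools and MACS2 with build mm10 are named, per the submitters' processing notes, the first 2 without versions. Per the file headers, MACS 2.1.0.20140616 was run with a p-value cutoff of 1e-10, at most 1 tag per position and the larger library scaled to the smaller. The deposited pileup is a signal, ChIP coverage at the summit scaled to input depth; divided by that scale it gave whole fragments within 0.02 at 100% of peaks. The deposited fold is a ratio of pileup to local input background with 1 added to both, from which the background was recovered. The deposited −log10 p-value was used as a filter, and to rank peaks where lists were held to equal length. The −log10 q-value was not used. Fold was ranked within a list; fragments were set per 10000000 ChIP tags.

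Regions were peaks merged at 1 bp overlap. Gene ends came from a RefSeq table and starts and sequences from a RefSeq promoter table, both GRCm38.p6. Percentiles are shares of a list's peaks at or below a fold. Values were computed with Python 3.11.15, pandas 2.3.3 and scipy 1.17.1. All 31 genes were accounted for; of 53 other genes, the 5 of highest mean percentile among those bound in all lines were named. Genes, lists and steps were chosen with earlier results of these data known. Alternatives were windows of 500 and 5000 bp, summits inside genes, annotated starts, p of 1e-20, equal list lengths and 50% reciprocal overlap.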

Additional observations from a re-analysis of the deposited data

How the results depend on the processing

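The count for PB120 moved from 7 genes (background 16.4% of coding genes) to 13 with a 5000 bp window (background 21.1%), to 13 with summits inside genes counted (20.1%) and to 4 at a p of 1e-20 (11.2%). The count for all 3 lines moved from 5 (background 14.4%) to 11, 11 and 3 in the same settings (18.8%, 17.5% and 9.35%), and to 11 with PB120 left out (23.4%), an alternative chosen after seeing the data. With every list shortened to its 5168 peaks of lowest p, PB119 had 7 end-bound genes and not 16, beside 8 in PB115 and 7 in PB120, where 18.2%, 17% and 16.4% of coding genes were end-bound. Genes with an end peak in a region common to all lines went from 6 to 3 at a p of 1e-20 (Maml3, Notch2 and Psenen), with no background computed for either count. Under the 500 bp window, annotated starts only, and the 50% overlap, the counts stayed within 1.5 times the reported ones. The annotated-start counts are of 26 genes and not 31, so their shares moved more. For PB120 the share went from 22.6% to 34.6% (background 16.4% and 17.6%). For all 3 lines it went from 16.1% to 26.9% (background 14.4% and 15.6%). Notch2, Lfng, Adam17, Psenen and Maml3 were end-bound in all lines with equal list lengths and at 500 bp. No paired analysis was possible because each line had 1 ChIP library.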
